A study of Mus musculus with 6 samples.

Results

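The 10 genes described here encode the core of MHC class I antigen presentation in the mouse: the heavy chains H2-K1, H2-D1, H2-T23 and H2-M3, the light chain B2m, the peptide transporter subunits Tap1 and Tap2, the loading factor Tapbp, and the lectin chaperones Calr and Canx. They were chosen by name, and all 10 were found among the 16519 genes of the deposited count table. Expression was measured by bulk RNA sequencing of bone marrow derived macrophages (BMDMs), which are grown in culture from marrow cells. The 3 libraries called KO came from Trmt61af/fLysmCre mice, in which LysM-Cre, a recombinase inserted in the lysozyme gene Lyz2, deletes floxed Trmt61a in myeloid cells. The 3 libraries called WT came from Trmt61af/f mice, which carry the same floxed gene without Cre, so that loss of Trmt61a and presence of Cre cannot be told apart. The sources used here give neither strain, age nor stimulus, and do not say whether replicates are separate mice or cultures. The p-values therefore cover the spread among these libraries alone, which may be technical.

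Class I molecules show peptides from inside the cell to CD8 T cells and NK cells. A heavy chain is folded in the endoplasmic reticulum with the help of calnexin, pairs with beta-2 microglobulin, and is held by calreticulin and tapasin beside the TAP transporter, which pumps peptides in from the cytosol, until a peptide is bound and the complex leaves for the surface. H2-K1 and H2-D1 encode classical heavy chains, H2-T23 encodes Qa-1, which presents leader peptides of other class I chains to NK cell receptors, and H2-M3 presents peptides that begin with formylmethionine. Nucleated cells in general carry class I, and interferons raise its genes through NLRC5, interferon regulatory factors and NF-kB acting at a compact promoter. Trmt61a encodes the active subunit of a tRNA methyltransferase that forms N1-methyladenosine, and the title of the series concerns the translation of interferon associated genes. RNA sequencing measures transcript levels and not translation.

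The promoter elements are shown first, because several of the genes share them. None of the elements printed below was found in all of the heavy and light chain genes. The 250 bases before the annotated start were read from RefSeq (GRCm38.p6) for 9 of the 10 genes, Tap2 being the exception. Of the H2-K1 starts with a sequence available, the one with the larger coordinate was used. It lies inside the H2-K1 gene span (33996012 to 34000619, minus strand), as do the H2-K1 stretches shown. They therefore precede that start and not the outer end of the gene. The first pair of sequences joins a palindromic kappa B motif, the first run of capitals, and a short interferon response motif, GAANTGAAA, which is read here on the opposite strand. Capitals mark the letters that the motifs specify.
H2-K1: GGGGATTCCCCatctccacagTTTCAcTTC
H2-D1: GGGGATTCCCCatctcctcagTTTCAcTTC
The H2-K1 element lies at chr17:34000429-34000458 on the minus strand and the H2-D1 element at chr17:35262923-35262952 on the plus strand, and 29 of the 30 bases are the same. The kappa B motif occurred, on either strand, in 0.0307% of 32536 RefSeq windows of this length, and the short interferon motif in 1.51%. H2-M3 held the short interferon motif (TTTCAcTTC at chr17:37270133-37270141, plus strand) without this exact kappa B motif. B2m and H2-T23 held the longer interferon motif, GAAA repeated after 2 bases, found in 2.98% of windows, which can overlap the shorter one.

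A second element is the spaced module of the MHC enhanceosome, here the X2 letters TGACG followed after 20 bases by the Y box letters ATTGG, on either strand. The short interferon motif and the spacing of 20 bases were settled after reading these genes' own promoters, so their presence here is a description; 7 motifs were searched in all. The module was present in H2-K1, H2-D1, H2-M3 and B2m, and in 0.0922% of all windows.
H2-K1: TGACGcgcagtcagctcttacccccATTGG
H2-D1: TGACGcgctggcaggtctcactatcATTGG
H2-M3: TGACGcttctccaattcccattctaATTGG
B2m: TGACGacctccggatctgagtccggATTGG
These stretches lie at chr17:34000359-34000388 (minus), chr17:35262993-35263022 (plus), chr17:37270188-37270217 (plus) and chr2:122147609-122147638 (plus). The genes keep the spacing but less of the sequence between the capitals. Over all 30 bases, H2-K1 and H2-D1 share 23, and H2-D1 and B2m share 12. These counts include the capitals, which match by the definition of the module. The X2 letters alone occurred in 17.9% of windows and the Y box letters in 33.8%, the module's rarity coming from their spacing. Of the 9 genes read, 6 held the X2 letters and all 9 held the common Y box letters.

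The chaperone genes carried another element. Calr and Canx each held the ER stress response motif, CCAAT and CCACG separated by 9 bases, which 0.114% of windows held on either strand and none of the other 7 genes held in this window.
Calr: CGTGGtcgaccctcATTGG
Canx: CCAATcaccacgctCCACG
The Calr match (chr8:84847075-84847093, minus strand) is read on the opposite strand of the motif, and the Canx match lies at chr11:50325800-50325818 on the minus strand. The longer context of the light chain, whose product pairs with all of the heavy chains, is given with its interferon motif and spaced module in capitals (chr2:122147437-122147686, plus strand).
B2m: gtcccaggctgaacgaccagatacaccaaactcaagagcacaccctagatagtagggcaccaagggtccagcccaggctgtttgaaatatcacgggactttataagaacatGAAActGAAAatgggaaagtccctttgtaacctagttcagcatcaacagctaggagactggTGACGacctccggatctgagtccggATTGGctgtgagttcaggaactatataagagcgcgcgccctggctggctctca
A motif match describes letters only, and binding was not measured.

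**Figure D1:**
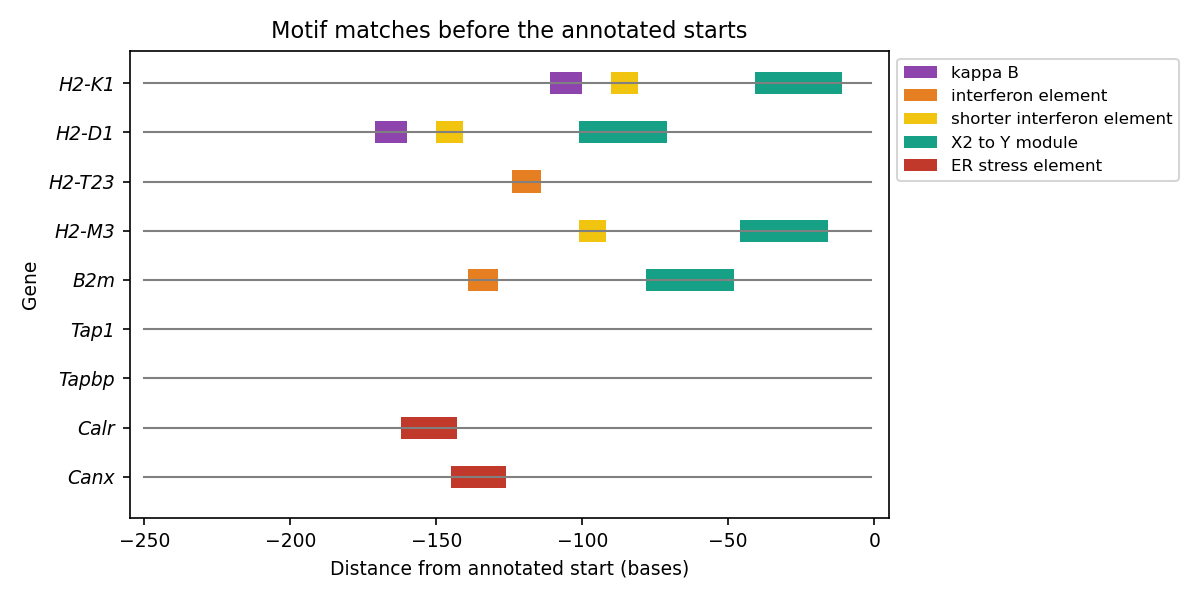
Motif matches in the 250 bases before the annotated start of 9 genes, with distance from the start in bases on the horizontal axis and 1 line per gene. The X2 to Y module is drawn for H2-K1, H2-D1, H2-M3 and B2m, and the ER stress element for Calr and Canx, while Tap1 and Tapbp hold none of the elements drawn.

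In mm10 coordinates, 7 of the genes lie within 3.36 Mb of the H2 complex on chromosome 17, from Tapbp (33919478 to 33929290) and H2-K1 (33996012 to 34000619), through Tap1 (34187556 to 34197225), Tap2 (34204479 to 34216321), H2-D1 (35263094 to 35267497) and H2-T23 (36029977 to 36032701), to H2-M3 (37270234 to 37274485). B2m is on chromosome 2 (122147687 to 122153082), Calr on chromosome 8 (84842088 to 84846931) and Canx on chromosome 11 (50293957 to 50325673). The heavy chains are paralogs, and reads common to several of them may be lost or divided in gene counting. Of all 50-base windows of the longest coding transcript, 29.8% in H2-T23, 14.3% in H2-D1, 8.79% in H2-K1 and 0.576% in H2-M3 also occurred in a transcript of another gene (GENCODE M21), and at 100 bases the shares were 7.28%, 4.64%, 0% and 0%. Outside the heavy chains, the 50-base shares were 21% in Tapbp, mostly with Gm19412, 12.6% in Tap2, 6.47% in Tap1 and 0.468% in Calr. B2m and Canx shared no window. Tap1 overlaps Psmb9, Tapbp overlaps Gm19412 and Zbtb22, and other genes overlap Tap2, B2m and H2-T23. Those counts are uncertain where reads fall in the overlap, since neither the strand setting nor the read length is stated in the labels. Patl2, the gene that overlaps B2m, shared no 50-base window with the B2m transcript read here.

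The libraries held between 37021855 and 41033179 gene counts. Trmt61a was lower in every KO library, at 0.608 ± 0.128 CPM (counts per 1000000 of TMM-adjusted library size) against 4.64 ± 0.648 CPM in WT (SD, n = 3), a KO mean of 13.1% of that in WT. The macrophage markers were abundant, the 9 other than Lyz2 summing to between 11980 and 13710 CPM in KO and between 12260 and 13250 in WT. Lyz2 itself, the site of the LysM-Cre insertion, was at 9503 ± 1161 CPM in KO and 18874 ± 2120 in WT (SD, n = 3; log2 fold change -0.99, edgeR adjusted p = 0.00735). With Lyz2 the 10 markers summed to between 20460 and 24480 CPM in KO and between 29420 and 34450 in WT, without overlap. Of other cells that could present antigen, dendritic cell markers (7 of 8 in the table, 2 at 1 CPM or more) summed to 4.61 to 6.17 CPM in KO and 5.53 to 7.01 in WT, and B cell markers (6 of 6, 3 at 1 CPM or more) to 9.01 to 14.8 CPM in KO and 8.74 to 16.4 in WT. T and NK cell markers summed to 0.504 to 1.01 CPM in KO and 1.49 to 1.87 in WT, so that these ranges did not overlap. Most of each sum came from Nkg7, at 0.681 ± 0.154 CPM in KO and 1.31 ± 0.201 in WT (SD, n = 3). Its libraries did not overlap either, at 19 to 31 counts in KO and 46 to 61 in WT (edgeR adjusted p = 0.999949). The other markers of this list were at 10 counts or fewer in every library. Cd3e was at 0 counts in KO 1 and KO 2, and Cd3g in KO 1 and all WT libraries. Erythroid and megakaryocyte markers did not overlap either, at 147 to 158 CPM in KO and 120 to 138 in WT, most of it from Pf4, a platelet chemokine gene. The part of these markers in the results was not tested. Cell cycle markers varied within both genotypes, from 278 CPM in KO 1 and 280 in WT 2 to 484 in KO 3 and 483 in WT 3. Neutrophil markers were likewise lowest in KO 1 (1611 CPM) and WT 2 (1624 CPM). In bulk samples, fewer cells of a type and less RNA per cell cannot be told apart.

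The question was whether transcripts of the class I pathway differ between KO and WT macrophages. No class I gene passed the test: 0 of the 10 genes were called (edgeR quasi-likelihood test, Benjamini-Hochberg adjusted over 12605 genes, threshold 0.05), where 0.0317% of all tested genes were, 0.00793% as higher and 0.0238% as lower in KO. All 10 passed the filter on low counts, each with the adjusted p of 0.999949. DESeq2 and limma voom also called 0 of them, against 0.127% and 0.0317% of all genes. At an unadjusted p under 0.05 edgeR gave 0 of the 10, and 3.1% of all genes. KO and WT libraries overlapped for all 10, while 8.65% of tested genes did not overlap, 4.05% higher and 4.59% lower in KO. Each 95% interval lay within 1.5-fold in either direction, which 72.4% of tested genes reached. Like the p-values, the intervals cover the spread among these libraries alone, for each gene by itself. They do not cover errors from reads shared between genes. The widest was that of H2-M3, which reached 1.37-fold. The point estimates were mostly slightly above 0, in 9 of the 10 genes with a median log2 fold change of 0.05 (KO minus WT), where 50% of all tested genes were above 0 with a median of 8.37e-05. Without WT 2 the median of the 10 genes was 0.0142 and 7 were above 0, and without KO 2 the median was 0.0559 and 7 were above 0. The sign was not stable for 6 of the 10 genes, H2-K1, H2-T23, B2m, Tap2, Tapbp and Calr, each of which changed sign in 1 or more alternative settings.

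**Figure D2:**
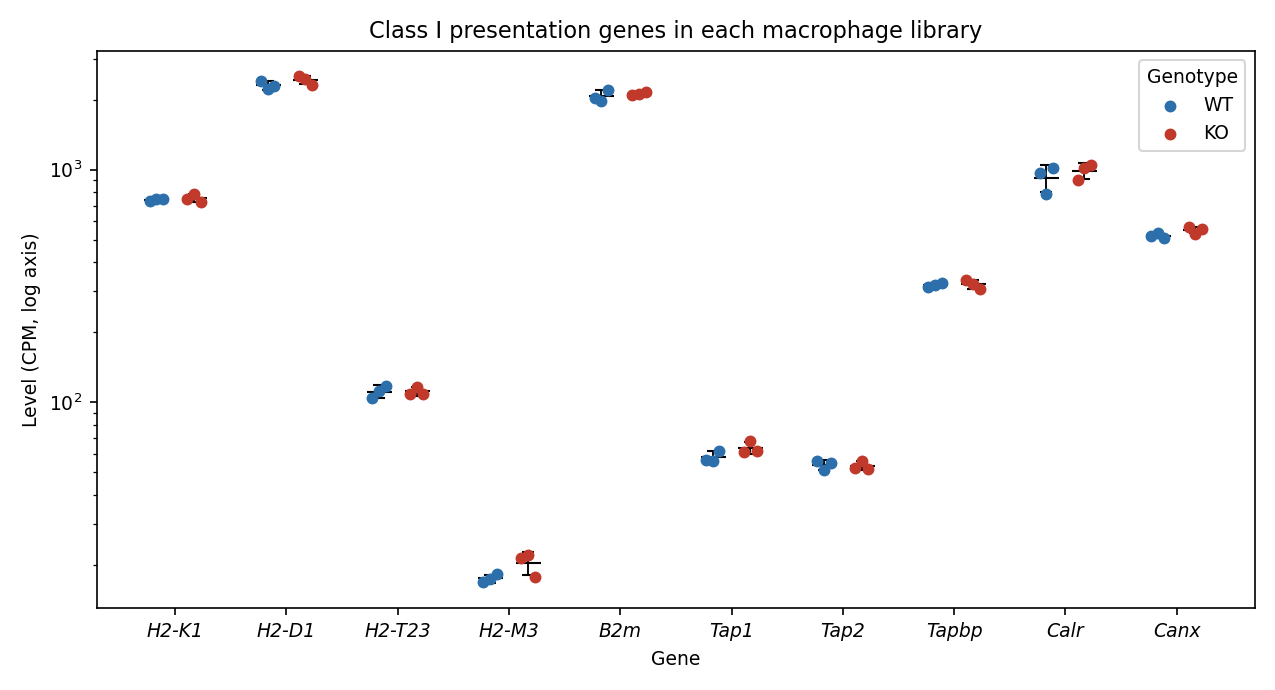
Level of each gene in each library in CPM on a log axis, with WT in blue and KO in red; black marks are means with SD (n = 3). The levels run from H2-M3 at about 19.0 CPM to H2-D1 at about 2363 CPM on average, and the WT and KO points of every gene overlap.

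H2-K1 stood at 749, 786 and 726 CPM in KO 1, 2 and 3 and at 736, 745 and 747 CPM in WT 1, 2 and 3. The WT libraries lay inside the KO range, and KO 2 and KO 3 were the highest and the lowest of the 6. The log2 fold change was 0.02 (SE 0.06, 95% interval -0.10 to 0.14). H2-D1, the more abundant classical heavy chain, stood at 2514, 2444 and 2319 CPM in KO and at 2411, 2214 and 2278 CPM in WT. Here KO 1 and KO 2 lay above all WT libraries and KO 3 did not. Its log2 fold change was 0.08 (SE 0.06, 95% interval -0.06 to 0.21).

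The non-classical heavy chains were less abundant. H2-T23 stood at 108, 117 and 109 CPM in KO and at 104, 112 and 118 CPM in WT, and the lowest and the highest library were both WT. Its log2 fold change was 0.0012 with an interval from -0.14 to 0.14. H2-M3 had the largest estimate of the 10, with 21.5, 22.01 and 17.8 CPM in KO and 16.9, 17.5 and 18.2 CPM in WT. KO 1 and KO 2 lay above every WT library, and KO 3 lay between WT 2 and WT 3. The log2 fold change of H2-M3 was 0.22 (SE 0.10, 95% interval -0.01 to 0.45), and between 622 and 874 counts stood behind each value. Its unadjusted edgeR p was 0.0557, rank 447 of 12605 genes, and an exact two-sided permutation test over the 6 libraries gave p = 0.2, where 0.1 is the smallest that 3 against 3 allow. Without KO 3 the log2 fold change was 0.31, and without KO 2 it was 0.17.

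B2m, the light chain, stood at 2098, 2105 and 2162 CPM in KO and at 2040, 1972 and 2208 CPM in WT. The KO libraries lay inside the WT range. The log2 fold change was 0.03 (SE 0.06, 95% interval -0.11 to 0.17). A heavy chain reaches the surface stably only with its light chain, and the balance of their transcripts was read per length, taking the longest coding transcript as the length. The ratio of B2m to the 4 heavy chains summed was 1.396, 1.404 and 1.535 in KO and 1.41, 1.43 and 1.57 in WT, a mean of 1.45 ± 0.0777 against 1.47 ± 0.0861 (SD, n = 3). Replicate 3 had the highest ratio in each genotype. With the union of all annotated exons as the length, the mean ratio over the 6 libraries was 2 and not 1.46.

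The share of H2-K1 among H2-K1 and H2-D1 counts does not depend on library scaling. The H2 haplotype of these mice is not given in the labels, and in mice of another haplotype than the mm10 reference the counts of both genes, and so this share, could be affected by mapping, which was not tested. It was 22.96%, 24.3% and 23.8% in KO and 23.4%, 25.2% and 24.7% in WT, with exact 95% binomial intervals such as 22.7% to 23.2% in KO 1, which cover counting error only. The libraries of 1 genotype therefore differed by more than counting error, and the genotypes overlapped, at 23.7 ± 0.700% in KO and 24.4 ± 0.929% in WT (SD, n = 3).

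Tap1 and Tap2 encode the subunits of the peptide transporter. Tap1 stood at 61.1, 68.0 and 62.0 CPM in KO and at 56.8, 56.3 and 62.0 CPM in WT, so that WT 3 and KO 3 were nearly level and WT 1 and WT 2 lay lowest. Its log2 fold change was 0.13 (SE 0.07, 95% interval -0.03 to 0.28). Tap2 stood at 52.3, 56.3 and 51.9 CPM in KO and at 56.0, 51.0 and 55.0 CPM in WT, with a log2 fold change of -0.013 and an interval from -0.16 to 0.14. KO 2 was the highest library for both subunits. The ratio of Tap1 to Tap2 per length was 1.36, 1.41 and 1.39 in KO and 1.18, 1.29 and 1.31 in WT, which did not overlap. That ratio was singled out after its values were seen, and 8 of the 45 ratios between the 10 genes did not overlap (17.8%, beside 8.65% of single genes tested), so it is given without a test. The 45 ratios share genes and are not independent.

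Tapbp encodes tapasin, which bridges the transporter and the empty heavy chain. It stood at 337, 322 and 307 CPM in KO and at 314, 321 and 325 CPM in WT, where the WT libraries again lay inside the KO range. Its log2 fold change was 0.0094 with an interval from -0.11 to 0.13.

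Calr encodes calreticulin, a soluble chaperone of glycoproteins that takes part in the loading complex. It had the widest range over the libraries, the highest being 1.33 times the lowest, at 900, 1018 and 1043 CPM in KO and 967, 784 and 1017 CPM in WT. WT 2 and KO 1 were the lowest libraries, the same 2 libraries that were lowest in cell cycle and neutrophil markers, whose part in the result was not tested. The log2 fold change was 0.10 (SE 0.10, 95% interval -0.12 to 0.32). Without WT 2 it was -0.01. Canx encodes calnexin, the membrane-bound chaperone, and stood at 567, 531 and 554 CPM in KO and at 518, 537 and 509 CPM in WT. Only WT 2 lay above the lowest KO library, KO 2. Its log2 fold change was 0.08 (SE 0.06, 95% interval -0.04 to 0.20).

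**Figure D3:**
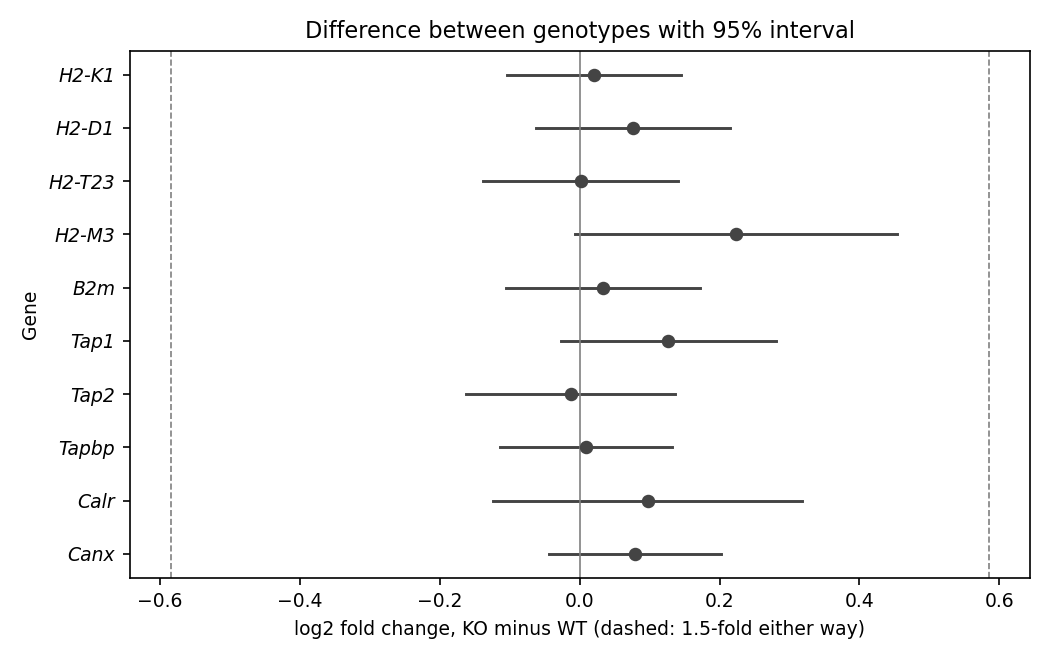
Log2 fold change of each gene, KO minus WT, with its 95% interval from edgeR; dashed lines mark 1.5-fold in either direction. All 10 intervals include 0 and lie inside the dashed lines, the widest being that of H2-M3, from -0.01 to 0.45.

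Most of the 10 genes varied little between libraries of a genotype. Their biological coefficient of variation in edgeR had a median of 6.65%, against 9.98% over all tested genes. All 10 lay below that overall median, H2-M3 only just, at 9.97%. The SD of log2 CPM within genotypes had a median of 0.0646 for the 10 genes and 0.13 over all tested genes. By that measure Calr, at 0.162, varied more than the overall median. Most of the 10 genes were also abundant, from the 45.8th percentile of mean level for H2-M3 to the 99.8th for H2-D1 and B2m. The part of abundance in the low variation was not tested. The highest and lowest libraries differed between genes. Tap1 followed KO 2 upward and WT 1 and WT 2 downward, while Canx was highest in KO 1 and lowest in WT 3. WT 2 was the lowest library for 5 of the 10 genes, with log2 deviations from the mean of -0.09 for H2-D1, -0.09 for B2m, -0.11 for Tap1, -0.08 for Tap2 and -0.28 for Calr. Among the genes with the X2 to Y module, KO 1 lay 0.19 above the mean for H2-M3, 0.09 above for H2-D1, and 0.0017 and 0.0014 above for H2-K1 and B2m.

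**Figure D4:**
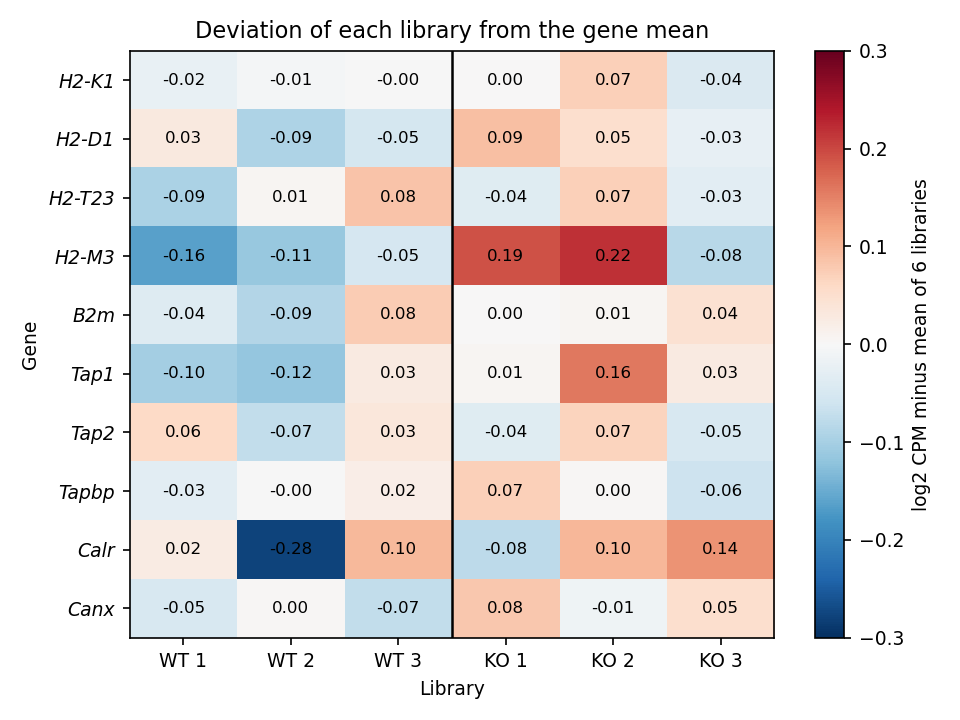
Log2 CPM of each gene in each library minus the mean of the 6 libraries, with red above and blue below the mean and the value printed in each cell. Calr in WT 2 (-0.28) and H2-M3 in KO 2 (0.22) are the farthest from their means.

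The gene lengths used next were chosen after the values were seen. Levels of different genes were set side by side per kilobase of the longest coding transcript, as CPM per kilobase averaged over the 6 libraries. B2m was highest at 2439, followed by H2-D1 at 1124, H2-K1 at 462, Calr at 437, Canx at 125, Tapbp at 111, H2-T23 at 75.7, Tap1 at 20.7, Tap2 at 15.6 and H2-M3 at 13.2. Neighbours overlapped over the libraries for H2-K1 with Calr and for Tap2 with H2-M3. With the union of annotated exons as the length, Calr came before H2-K1, and Tap2 and H2-M3 came before Tap1, so that the order within those groups depends on the transcript model. The remaining order was the same with both lengths, with B2m and H2-D1 on top.

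The other genes of the pathway were taken from 8 lists, which were written with earlier results of these data known. Of 107 names, 81 were tested, and 0 were called, where 0.0317% of all genes were (edgeR adjusted p), and 4 had an unadjusted p under 0.05, where 3.1% of all genes did. Log2 fold changes were above 0 for 42 and below 0 for 39, with a median of 0.0094. KO and WT libraries did not overlap for 12 of the 81 (14.8%), 5 higher and 7 lower in KO, beside 8.65% of all tested genes. Many of these genes share pathways, so that the 12 are not independent.

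Few of the listed heavy chains outside the core could be tested. Of 23 listed, 11 were in the table and 6 were tested, 3 above 0 and 3 below, with 0 called. A name can be missing because of the annotation used, and reads common to paralogs may be lost. H2-Q1, H2-Q7 and H2-Q6, for example, shared 50-base windows with H2-D1. Missing names and low counts therefore do not show that a chain was little expressed, which was not tested. H2-Q4 was at 62.7 ± 2.84 CPM in KO and 61.0 ± 1.71 in WT (SD, n = 3), H2-T22 at 52.7 ± 0.592 and 52.3 ± 3.03, and H2-T24 at 23.5 ± 1.10 and 26.1 ± 3.56. H2-Q10, a secreted class I chain best known from liver, was at 0.251 ± 0.149 CPM in KO and 0.671 ± 0.407 in WT, a log2 fold change of -1.40 (SE 0.65). Between 4 and 44 counts stood behind each H2-Q10 value, and the genotypes overlapped. The value was -0.85 without WT 2, -1.91 without KO 2 and -0.49 when both KO 1 and WT 2 were left out. For H2-T24 the log2 fold change was -0.15, and -0.04 without WT 3. Among class I-like molecules 9 were tested, 5 above and 4 below 0, with 0 called. Fcgrt, the receptor that recycles IgG, was the most abundant at 267 ± 28.3 CPM in KO and 265 ± 34.0 in WT. Procr, the protein C receptor, and H60b, a ligand of the NK receptor NKG2D, had the smallest p of that list, with log2 fold changes of 0.26 and -0.90, and H60b stood at 0.202 ± 0.0373 and 0.380 ± 0.120 CPM. For Procr the value was 0.12 without KO 2, 0.14 without WT 2 and 0.39 without KO 1.

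Among genes of peptide supply, the immunoproteasome and PA28 genes had 4 of 6 members above 0 with a median of 0.03, 0 called, and 6 intervals within 1.5-fold. Psmb8, a catalytic subunit of the immunoproteasome, was at 52.0 ± 3.03 CPM in KO and 48.8 ± 3.63 in WT, and Psme1, a subunit of the PA28 activator, at 84.1 ± 3.91 and 87.3 ± 3.62 (SD, n = 3). Cytosolic peptidases had 6 of 9 above 0, 0 called. Lap3, a leucine aminopeptidase, had a log2 fold change of -0.21 (SE 0.10), and Dpp9, a dipeptidyl peptidase, had 0.12, its libraries not overlapping.

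Genes of peptide loading and glycoprotein folding had 11 of 16 members above 0, with a median of 0.05 and 0 called. Hspa5, which encodes the ER chaperone BiP, stood at 643, 636 and 644 CPM in KO and at 577, 554 and 583 CPM in WT. The KO libraries agreed closely and all lay above the WT libraries. Its log2 fold change was 0.17 (SE 0.05), and it did not pass over all genes (edgeR adjusted p = 0.999949). Pdia6, a disulphide isomerase of the ER, stood at 192, 195 and 203 CPM in KO and at 179, 169 and 180 CPM in WT, again without overlap and without passing (log2 fold change 0.16, edgeR adjusted p = 0.999949). Syvn1, a ubiquitin ligase that disposes of misfolded ER proteins, was lower without overlap, with a log2 fold change of -0.05.

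The cross-presentation list, the route by which ingested antigen reaches class I, had 8 of 16 members above 0 and 0 called. Sec61g, the gamma subunit of the ER translocon, stood at 27.8, 23.97 and 27.1 CPM in KO and at 21.0, 22.1 and 20.7 CPM in WT. All KO libraries lay above all WT libraries, with a log2 fold change of 0.31, SE 0.09 (edgeR adjusted p = 0.999949). The beta subunit Sec61b had 0.16, also without overlap, and the alpha subunit Sec61a1 had 0.06. Ncf1 and Ncf4, cytosolic subunits of the phagocyte NADPH oxidase, were lower without overlap, with log2 fold changes of -0.14 and -0.10, while Cybb, its catalytic subunit, had -0.06.

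Transcription factors of the class I promoters had 4 of 13 members above 0, a median of -0.03 and 0 called. Nlrc5, the class I transactivator, was at 41.2 ± 2.33 CPM in KO and 39.8 ± 2.70 in WT (SD, n = 3), and Irf1 was at 75.3 ± 9.16 and 75.0 ± 4.92. Rela, a subunit of NF-kB, was at 138 ± 9.17 and 153 ± 10.9 CPM, a log2 fold change of -0.14, and the genotypes overlapped. The RFX complex binds the X box beside the X2 letters shown above. Its 3 genes were each lower in every KO library than in every WT library. They were the only genes of the 13 listed whose libraries did not overlap, and 4.59% of all tested genes were lower in KO without overlap. Rfx5 stood at 17.7, 16.8 and 19.1 CPM in KO and at 19.2, 21.6 and 22.4 CPM in WT, with a log2 fold change of -0.23 (SE 0.10) (edgeR adjusted p = 0.999949). Rfxap stood at 14.2, 14.8 and 11.0 CPM in KO and at 15.1, 15.4 and 15.8 CPM in WT (log2 fold change -0.21, edgeR adjusted p = 0.999949), and without KO 3 its log2 fold change was -0.09. Rfxank stood at 11.3, 13.1 and 11.3 CPM in KO and at 15.0, 13.2 and 13.6 CPM in WT (log2 fold change -0.23, edgeR adjusted p = 0.999949). The gaps between the nearest KO and WT libraries were narrow, KO 3 against WT 1 for Rfx5 and KO 2 against WT 2 for Rfxank. Rfxap and Rfxank were named after their values were seen. The genes with the X2 to Y module, H2-K1, H2-D1, H2-M3 and B2m, had log2 fold changes between 0.02 and 0.22.

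The list of class I receptors on myeloid cells, which includes related receptors not shown here to bind class I, had 1 of 6 members above 0. Its median was -0.07, with 0 called. Pirb, an inhibitory receptor for class I, was at 746 ± 23.8 CPM in KO and 795 ± 47.8 in WT (SD, n = 3; log2 fold change -0.09), and Lilr4b, a related receptor, had -0.05. Members of this family are close paralogs, and their counts are uncertain in the same way as those of the heavy chains. Housekeeping genes, listed for comparison, had a median of 0.01, with Gapdh at 0.08 and Rpl13a at -0.09. The deposited table's own pathway annotation assigns 71 genes to antigen processing and presentation, class II included, all 10 genes among them. Of the 55 that were tested, 33 were above 0, where 50% of all tested genes were, and 0 were called, where 0.0317% were. An unadjusted edgeR p under 0.05 was given to 3 of them, and to 3.1% of all tested genes. These 3 were Hspa5, Rfx5 and Ifi30, a lysosomal thiol reductase (log2 fold change 0.29). Without overlap of libraries, 1 was higher and 3 were lower in KO, beside 4.05% and 4.59% of all tested genes.

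**Figure D5:**
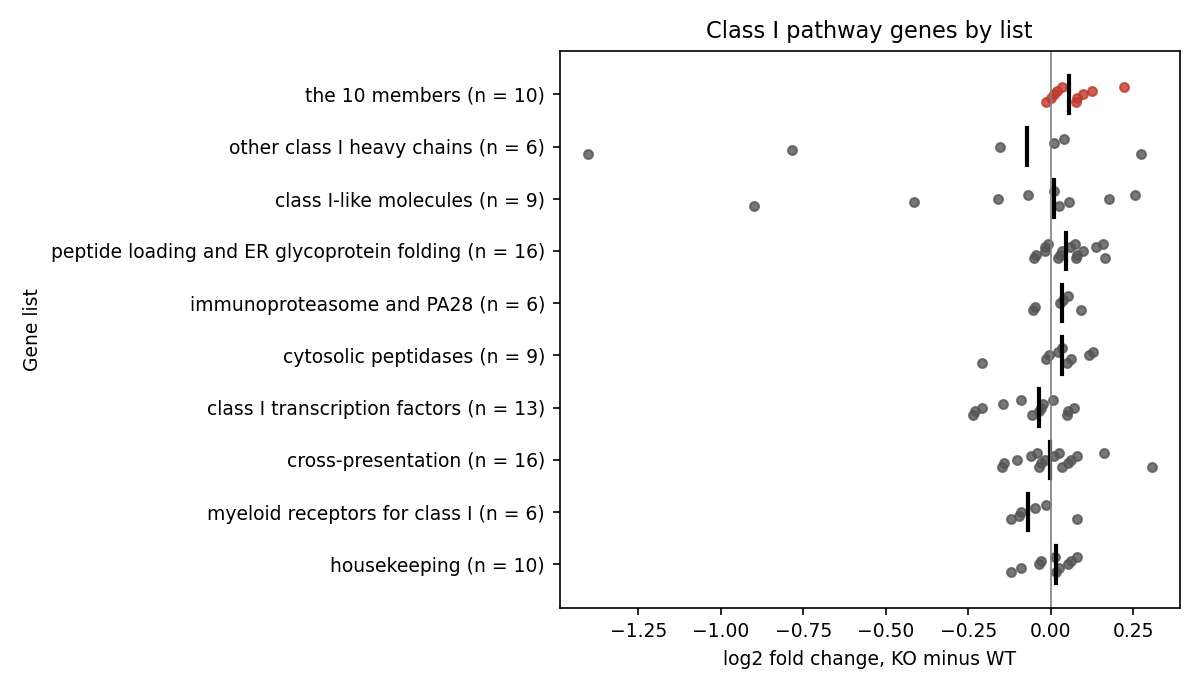
Log2 fold change, KO minus WT, of each tested gene by list, with the 10 class I presentation genes in red and a black bar at each median. Medians lie between -0.07 and 0.05, and the lowest value is that of H2-Q10 at -1.40, a gene with means under 1 CPM in both genotypes.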

How the data were processed

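Unnormalized counts for each gene in 6 libraries are what the authors deposited, as 1 table. RNA was extracted with TRIzol and the library kit was VAHTS Universal V6 (both per the labels' protocols). The tools fastp, HISAT2 and HTSeq and the build mm10 are named, per the submitters' processing notes, and their versions, the annotation and the strand setting are not stated. Sample titles gave genotype and replicate.

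Counts were analysed with edgeR 4.0.16 in R 4.3.3: TMM factors, filterByExpr by genotype (minimum count 10), robust glmQLFit with the legacy option, and Benjamini-Hochberg adjustment over 12605 genes at a threshold of 0.05. Each standard error (SE) is the absolute log2 fold change over the root of F, with 95% intervals from the fit's total degrees of freedom. A count of 3 corresponds to 0.0730 to 0.0813 CPM, for counting error only. Replicate pairs differed by 11.4 to 34.2 chi-square units per degree of freedom, so each library counted once. On simulated counts the same steps recovered 62.7%, 72.7% and 96.9% of genes changed 1.5-fold, 2-fold and 4-fold among 12493 genes (KO minus WT), with 12 false calls among 164. With 164 genes called there against 4 in the data, the adjusted threshold was looser in the simulation. These shares therefore do not give the recovery in the data.

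Lengths and overlaps came from GENCODE M21, and coordinates and promoters from RefSeq GRCm38.p6, the assembly of mm10, matched by Entrez Gene ID. The members and lists were chosen with earlier results of these data known. Named genes are the 10 members, the 2 with the smallest p of each list, the label check, and those said to be chosen after their values were seen. The genes whose libraries did not overlap were also named after that, as were Nlrc5, Irf1, Fcgrt, H2-Q4, H2-T22, Sec61a1, Cybb, Ifi30, Pf4, Nkg7, Cd3e, Cd3g and Nfe2l1. By the same rule the genes most like H2-K1 and H2-D1 were named, 1 of which is not reported here. Alternatives were other normalizations, filters and tests (DESeq2 1.42.0, limma voom 3.58.1), no robust estimation, a replicate block and leaving out each library.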

Additional observations from a re-analysis of the deposited data

How the results depend on the processing

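No alternative called any of the 10 class I genes or of the other pathway genes. Over 16 alternatives for each of the 10 genes, 160 values in all, the smallest adjusted p was 0.9105, and 14 values had the opposite sign. The number of genes called over the whole table was 4, and was 16 with DESeq2 and 8 with the replicate block, and 3 to 5 with 1 library left out. The cause was not tested. The labels do not say whether the replicate numbers pair the libraries. The deviations of same-numbered libraries correlated at 0.0424, -0.188 and 0.402, and only replicate 3 correlated best with its own number. So few libraries cannot decide whether the numbers mark a shared batch. The log2 fold change of H2-T23 was -0.0043 with upper-quartile normalization and -0.0014 with at least 1 CPM required in all 6 libraries. Leaving out KO 1 and WT 2 together, chosen after the data were seen because these libraries were lowest in cell cycle markers, gave -0.0232 for Tapbp and 0.0042 for Lilr4b, with 6 genes called. With 1 library left out, log2 fold changes ran from -0.0096 to 0.0474 for H2-K1, -0.044 to 0.0462 for H2-T23, -0.0046 to 0.082 for B2m, -0.0553 to 0.014 for Tap2, -0.0251 to 0.043 for Tapbp and -0.0102 to 0.174 for Calr. The difference in the H2-K1 share ran from -1.24 to -0.337 percentage points around -0.717, and that in B2m per heavy chain from -0.0688 to 0.0252 around -0.0241. The depth of 622 counts or more behind each class I value left spread between libraries, rather than counting, as the larger error.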

Other observations

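The X2 to Y module was found before the annotated starts of 22 genes other than the class I genes, of which 16 were tested. These included Trim26, a ubiquitin ligase gene within the extended H2 region, Ghitm, an inner mitochondrial membrane protein gene, and Nfe2l1, the regulator of proteasome genes. Their log2 fold changes were above 0 for 11 and below 0 for 5, with a median of 0.03 and 0 called, where edgeR called 0.0317% of all tested genes. Trim26 stood at 85.9, 86.3 and 81.7 CPM in KO and at 88.2, 90.6 and 91.3 CPM in WT. Ghitm stood at 162, 157 and 159 CPM in KO and at 143, 154 and 153 CPM in WT. Trim26 (lower) and Ghitm (higher) were the 2 of the 16 whose libraries did not overlap, which is 12.5% beside 8.65% of all tested genes. Nfe2l1 was at 214 ± 4.34 CPM in KO and 208 ± 2.54 in WT (SD, n = 3). The presence of the letters in these windows was not tested for binding.

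Among the genes whose pattern over the 6 libraries was most like the mean of H2-K1 and H2-D1 were 1700123O20Rik (Pearson r = 0.991, Spearman rho = 0.943) and Med15, a Mediator subunit gene (r = 0.989, rho = 1). They were picked from 11332 genes searched, 54 of which had r above 0.9, so these values describe a selection and carry no test.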
